A study of Mus musculus with 4 samples.

Results

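Type I interferon response genes were followed through the hematopoietic stem and progenitor cells (HSPCs) of mouse bone marrow, gene by gene, in RNA and in promoter opening. The set held 36 genes, listed by symbol as known members of the response, of 32272 gene rows in the matrix. A promoter here is the sum of the ATAC peaks within 1 kb of the start-site interval that the matrix gives for a gene, and the 36 genes had 55 such peaks of 174339 in all. Lin-cKit+ HSPCs of 8-week-old male C57BL/6 mice were profiled by single-nucleus multiome sequencing, which counts RNA as unique molecular identifiers (UMIs) and open chromatin as ATAC counts nucleus by nucleus. Ctrl mice had no ligature and Lig mice carried silk ligatures on the teeth for 14 days, with marrow of several mice pooled per group. This gave 4 label groups of 1 sample, an RNA and an ATAC library per condition. Both conditions share 1 matrix, in which barcodes end in 1 or 2, and the labels do not say which ending is which condition. They are called library 1 and library 2 here and belong to no group, and no comparison of ligature with control was made.

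Type I interferons bind a receptor made of Ifnar1 and Ifnar2, and the receptor-bound kinases then phosphorylate STAT factors such as Stat2, which joins Irf9 in a complex that binds the interferon-stimulated response element (ISRE) in promoters. The genes switched on this way recognise foreign RNA, block translation, tag proteins with the ubiquitin-like Isg15 and, through Usp18, dampen the receptor. In the marrow, stem cells are known to respond to type I interferon by entering the cell cycle, and plasmacytoid dendritic cells are known as its strongest producers.

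The letters of the member promoters show which genes carry this element next to their start. RefSeq promoters (GRCm38.p6, 250 bases before to 50 after the start) matched 29 of the 36 genes, and 28 of these 29 overlapped a counted peak of the same gene. The motif GAAANNGAAA, searched on both strands with overlapping matches counted, was in 12 of the 29 (41.4%), against 943 of 27025 promoters (3.49%). The STAT dimer motif TTCNNNGAA was in 7 of the 29 (24.1%), against 8.47% of all promoters. The following promoters are shown on the strand of the gene, with every GAAANNGAAA match or its reverse complement in capitals. Isg15 (chr4:156200769-156201068, minus strand) held 3 overlapping matches, Ifit1 (chr19:34640639-34640938, plus strand), Ifit3 (chr19:34583279-34583578, plus strand) and Bst2 (chr8:71537423-71537722, minus strand) held 2 each, and Stat2 (chr10:128270248-128270547, plus strand) and Ddx58 (chr4:40239776-40240075, minus strand) held 1 each. Sp100 (chr1:85649738-85650037, plus strand) and Irf7 (chr7:141266375-141266674, minus strand) are also printed, and neither held these letters in this window. Sp100 had the widest range of a well-counted transcript, and Irf7 had few UMIs beside a promoter sum of 2 peaks.
Isg15: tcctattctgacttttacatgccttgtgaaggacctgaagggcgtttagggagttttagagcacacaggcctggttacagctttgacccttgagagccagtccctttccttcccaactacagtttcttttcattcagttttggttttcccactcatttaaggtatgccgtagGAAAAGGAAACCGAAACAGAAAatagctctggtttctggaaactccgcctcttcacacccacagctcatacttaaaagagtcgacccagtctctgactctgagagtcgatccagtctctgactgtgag
Ifit1: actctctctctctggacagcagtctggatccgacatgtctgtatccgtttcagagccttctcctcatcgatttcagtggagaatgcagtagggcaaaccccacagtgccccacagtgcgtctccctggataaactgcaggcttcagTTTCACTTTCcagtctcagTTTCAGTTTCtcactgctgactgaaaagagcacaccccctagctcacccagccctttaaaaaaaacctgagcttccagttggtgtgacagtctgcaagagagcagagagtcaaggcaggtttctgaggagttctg
Ifit3: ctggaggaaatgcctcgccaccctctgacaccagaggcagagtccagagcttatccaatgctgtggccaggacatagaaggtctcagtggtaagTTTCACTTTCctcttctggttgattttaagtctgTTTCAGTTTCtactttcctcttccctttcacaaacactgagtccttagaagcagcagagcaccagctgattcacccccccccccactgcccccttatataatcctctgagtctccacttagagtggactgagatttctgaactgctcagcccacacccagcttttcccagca
Bst2: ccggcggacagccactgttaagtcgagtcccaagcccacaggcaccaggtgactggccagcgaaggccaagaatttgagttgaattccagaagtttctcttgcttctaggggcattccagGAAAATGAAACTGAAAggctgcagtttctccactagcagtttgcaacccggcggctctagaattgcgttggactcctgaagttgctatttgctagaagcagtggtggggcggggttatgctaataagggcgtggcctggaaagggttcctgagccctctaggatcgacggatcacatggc
Stat2: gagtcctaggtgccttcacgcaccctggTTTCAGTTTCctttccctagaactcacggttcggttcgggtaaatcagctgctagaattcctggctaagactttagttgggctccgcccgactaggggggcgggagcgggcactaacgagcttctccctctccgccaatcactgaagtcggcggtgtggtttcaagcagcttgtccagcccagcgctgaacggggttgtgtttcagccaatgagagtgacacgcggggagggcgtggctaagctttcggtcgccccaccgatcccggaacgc
Ddx58: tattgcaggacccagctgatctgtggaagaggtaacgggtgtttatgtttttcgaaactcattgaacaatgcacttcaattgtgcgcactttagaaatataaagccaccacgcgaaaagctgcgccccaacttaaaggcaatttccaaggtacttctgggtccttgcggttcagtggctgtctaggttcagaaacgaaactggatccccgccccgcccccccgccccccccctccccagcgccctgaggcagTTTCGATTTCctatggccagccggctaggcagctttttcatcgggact
Sp100: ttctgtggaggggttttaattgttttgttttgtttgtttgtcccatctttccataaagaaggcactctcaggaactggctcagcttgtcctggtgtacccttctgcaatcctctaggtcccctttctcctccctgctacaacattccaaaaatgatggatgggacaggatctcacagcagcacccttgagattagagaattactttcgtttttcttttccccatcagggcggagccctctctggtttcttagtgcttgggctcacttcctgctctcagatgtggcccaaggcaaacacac
Irf7: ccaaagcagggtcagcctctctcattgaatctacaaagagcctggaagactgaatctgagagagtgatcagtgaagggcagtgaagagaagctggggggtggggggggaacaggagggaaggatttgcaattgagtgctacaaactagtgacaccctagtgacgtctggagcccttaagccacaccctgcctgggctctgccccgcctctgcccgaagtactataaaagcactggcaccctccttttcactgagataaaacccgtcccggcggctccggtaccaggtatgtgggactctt
The motif is short, and a match is a description of the letters, not a site shown to be used.

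After the limits of at least 200 genes and 1000 to 50000 peak counts per nucleus, 13619 of 18961 barcodes were kept, 5905 of 8762 in library 1 and 7714 of 10199 in library 2. They held 10294527 and 12537328 UMIs and 118239764 and 128699726 peak counts. The ribosomal locus took 43.0% of UMIs in library 1 and 53.2% in library 2, so RNA levels were scaled to a total of 1000000 UMIs (CPM) over all other genes, which left 5864583 and 5872916 UMIs. Promoter counts were scaled in the same way to all peak counts and are also given as CPM. The libraries shared 72 barcode sequences. Clustering without the 36 genes, the other pathway genes and their peaks gave 18 clusters, of which 13 were named from marker lists with the suffix "-like" and 5, with 40.4% of nuclei, were left unnamed. Between 4 and 10 listed markers were raised in each named class. The named classes were HSC-like (hematopoietic stem cell, 1494 nuclei), pro-B-like (1195), GMP-like (granulocyte-monocyte progenitor, 1187), pDCP-like (plasmacytoid dendritic cell progenitor, 965), LMPP-like (lymphoid-primed multipotent progenitor, 715), EryP-like (erythroid, 686), NeuP-like (neutrophil, 475), BaP-like (basophil, 289), MkP-like (megakaryocyte, 281), B-like (270), pro-NK/T-like (201), cDCP-like (conventional dendritic cell, 181) and cMoP-like (common monocyte progenitor, 177). Of the pDCP-like nuclei, a group of 83 carried most of the Siglech and Ccr9 RNA, and these are described apart. In a finer clustering named by the same rule, the other 882 lost the pDCP-like name. Values of this class thus mostly describe nuclei with little RNA of these markers, and their identity was not settled. Nuclei are not replicates and each label group held 1 sample, so no p-value was computed. All intervals are 95% exact Poisson intervals that cover counting error only.

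RNA of the set was sparse, and the part that free RNA takes in it was not tested. Pooled over kept nuclei, 10644 UMIs came from the 36 genes, 6151 in library 1 and 4493 in library 2, which was 1049 and 765 CPM. The median gene of the set was at 11.6 CPM, against 4.17 CPM for the 20740 genes with a promoter peak. Ifnar2 (1365 UMIs), Sp100 (1230) and Trim30a (983) gave the most UMIs, whereas Ifit3 (4), Irf7 (24) and Zbp1 (24) gave the fewest. Per kilobase of gene, Bst2, the membrane tether of budding virions, stood at 13.01 CPM per kb, ahead of Irf9 (3.55), Ifnar2 (3.54), Dtx3l (3.04) and Isg15 (2.75). Ifit3 (0.066) was at the other end of that scale. Rtp4 (0.069) also was, but on an annotated length of 93.9 kb that begins far upstream of its RefSeq start, so its place is not settled. All 36 promoters held counts in both libraries, with a median of 19.1 CPM against 23.1 for all genes with a peak. Ifnar1 had the highest sum at 61.5 CPM, followed by Adar (51.0), Rtp4 (50.1), Parp9 and Dtx3l (41.7 each, over 2 shared peaks). These sums cover 1 peak for Ifnar1, 3 for Adar and 13 for Rtp4, and the Rtp4 peak at the RefSeq start alone held 7.84 CPM. Ifit3 (2.77), Ifi44 (3.18) and Sp100 (3.74) had the lowest sums. The ligands themselves were almost absent, since the 18 listed type I interferon genes gave 1 UMI in all.

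Summed over the 36 genes, and among the 13 named classes, RNA was highest in cDCP-like, cMoP-like, B-like, pro-NK/T-like and LMPP-like nuclei, and lowest in BaP-like and GMP-like nuclei. In library 1 and library 2, the sums were 1586 and 1302 CPM in cDCP-like, 1650 and 1225 in cMoP-like, 1622 and 1161 in B-like, 1580 and 1138 in pro-NK/T-like and 1453 and 1171 in LMPP-like nuclei. The same 5 held ranks 1 to 5 of the named classes in each library, although their order differed. HSC-like nuclei followed below NeuP-like nuclei (1235 and 1099 CPM) with 1219 and 998.5 CPM, and pDCP-like nuclei had 1224 and 805.9 CPM. GMP-like nuclei had 768 and 579 CPM and BaP-like nuclei 744 and 517 CPM, ranks 12 and 13 in both libraries. Of the unnamed clusters, which hold 40.4% of nuclei, cluster 10 (384 nuclei) had 1695 and 1302 CPM, at or above each named class. Cluster 17 (85 nuclei) had 679 and 401, below each of them. That level rests on 30 and 4 UMIs, with intervals of 458 to 969 and 109 to 1028 CPM, so its place is not settled. Cluster 0 (2637 nuclei) had 728 and 644 CPM, below every named class in library 1 but not in library 2. Averaged over libraries with equal weight, the highest named class stood 2.29-fold above the lowest. Library 1 was above library 2 in all 13 classes, by 1.10-fold in MkP-like to 1.52-fold in pDCP-like nuclei, so classes were compared within libraries. The median nucleus held 457 to 825 UMIs outside the ribosomal locus in the 5 highest classes and 672 and 878 in BaP-like and GMP-like nuclei, and the part of depth in the order was not tested. Fewer cells with a transcript and less transcript per cell cannot be told apart in these sums.

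Promoter opening over the same genes differed much less. Among named classes, on the mean of libraries, it was highest in pro-NK/T-like nuclei, with 978 and 903 CPM, and lowest in pDCP-like nuclei, with 711 and 717, a range of 1.32-fold. Scaled to counts in peaks near genes, with libraries pooled, the range was 1.21-fold, with cMoP-like nuclei highest and B-like nuclei lowest. NeuP-like nuclei came second on the mean of libraries, with 913 and 861. The unnamed cluster 0 (2637 nuclei) had 705.5 and 711 CPM, close to the pDCP-like level. The cDCP-like nuclei, first in RNA, were 12th of 13 in promoter counts with 705 and 736, so the order of the classes in RNA was not their order in promoter opening.

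**Figure D1:**
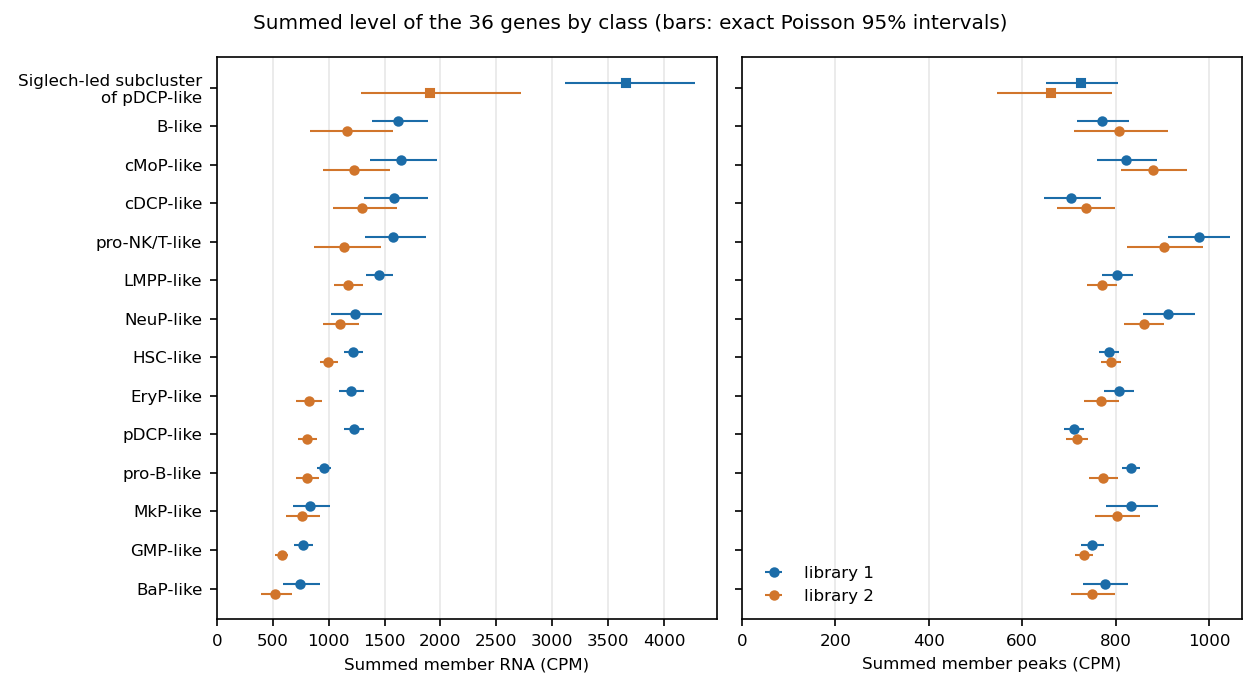
Summed level of the 36 genes in the 13 named classes, as RNA in CPM and as promoter CPM, with 1 point per library and 95% Poisson intervals; squares are the 83 Siglech-led nuclei split from the pDCP-like class. Library 1 lies above library 2 in RNA in all 13 classes, the range is 2.29-fold in RNA on the mean of libraries, and it is 1.32-fold in promoters.

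For single genes, a gene was counted in a class where at least 10 UMIs or 20 peak counts were expected there from its level over all nuclei. It was called where its level was at least 2-fold (RNA) or 1.5-fold (promoter) that of all other nuclei in both libraries, or as far below. Of 468 pairs of gene and class, 148 could be counted in RNA, with 22 genes in at least 1 class and only Ifnar2, Sp100 and Trim30a in all 13. Higher RNA was called in 7 of 148 pairs (4.73%), against a background of 2.35% of pairs over all genes, and lower RNA in 3 (2.03%), against 4.49%. Of the 7 higher calls, 4 were Sp100, and the other 3 of 135 pairs (2.22%) lay near the background. In promoters 436 pairs could be counted, of which 16 (3.67%) were called higher, against 4.09%, and 22 (5.05%) lower, against 7.72%. Over the named classes, the calls of the set thus lay near the background apart from Sp100. The unnamed clusters were read with the same rule. In RNA, 4 of 29 genes were called lower in cluster 0 (Ddx58, Oasl2, Samd9l and Usp18), against 5.21% of all genes, and 6 of 26 in cluster 1 (Ifih1, Ifi44, Samd9l, Parp12, Rtp4 and Parp14), against 4.82%. In promoters, 5 of 25 were called higher in cluster 17 (Ifnar1, Ifnar2, Irf9, Usp18 and Rsad2), against 8.41%, and 3 lower (Zbp1, Ddx58 and Rtp4), against 7.93%. Cluster 10 had 2 of 33 higher (Oas1a and Rsad2), against 4.89%, and Rtp4 lower, against 9.62%, and cluster 1 had 3 of 36 lower (Ifi44, Ddx58 and Rsad2), against 5.93%. All other calls are given for the 13 named classes. The highest and lowest class of a gene is that on the equal-weight mean of libraries, and a single library can have another order.

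The receptor genes differed between lineages, and not in the same order in RNA as in chromatin. Ifnar2, the subunit that binds interferon tightly, was highest in pDCP-like nuclei on the mean of libraries, at 260 and 153 CPM in library 1 and library 2, against 174 and 154 in LMPP-like nuclei. It had a median of 109 CPM over classes and was lowest in MkP-like nuclei at 47.2 and 38.4 CPM. The MkP-like level, 11 UMIs or 42.8 CPM (21.4 to 76.5), was the 1 lower call there, 0.36-fold and 0.37-fold that of other nuclei, and 4.58% of genes were called lower in that class. Ifnar1, the other subunit, had a median of 32.6 CPM, with 96.0 and 56.6 CPM in B-like nuclei (12 UMIs) at the top, and no class was called. Its lowest levels, 23.6 and 7.69 CPM in MkP-like and 30.6 and 5.94 CPM in NeuP-like nuclei, rest on 4 UMIs each and cannot be ordered. The promoters of both genes were most open in NeuP-like nuclei. Ifnar1 had 115 and 104 CPM there, against a median of 70.5 over classes and 53.9 and 50.1 in pDCP-like nuclei. Ifnar2 had 33.8 and 35.2, against a median of 18.5, with the least in B-like (18.8 and 11.03) and LMPP-like nuclei (15.3 and 14.9). With Oas2, these were the 3 higher promoter calls of NeuP-like nuclei, a class where 9.19% of genes were called higher and 23.7% lower. RNA of Ifnar1 and Ifnar2 in NeuP-like nuclei was 15.02 (4 UMIs) and 109 CPM, so neither transcript was highest where its promoter was most open.

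Of the transcription factors of the pathway, Stat2 and Irf9 were called in no class. Stat2, which acts with Irf9 on the ISRE, had a median of 40.4 CPM, with 134 and 28.3 in B-like nuclei (15 UMIs) and 20.4 and 29.7 in NeuP-like nuclei, and its order thus differed between libraries. Irf9 had a median of 25.6 CPM. Its promoter ranged from 25.2 and 27.0 CPM in GMP-like to 49.6 and 59.5 in pro-NK/T-like nuclei. Irf7, the factor that amplifies interferon production, was listed with 24 UMIs in all and at 0 in 6 of 13 classes. Its promoter, summed over 2 peaks, had a median of 34.6 CPM over classes. It reached 83.7 and 57.6 CPM in pro-NK/T-like nuclei, 2.50-fold and 1.78-fold the other nuclei, and was lowest in MkP-like nuclei at 26.4 and 29.7. Over all nuclei, the Irf7 peak at the start held 17.1 CPM and the peak within the gene 16.3 CPM. The median promoter sum of all genes with a peak was 23.1 CPM, so the start peak alone was not above it. The gene is short, at 3.78 kb, and its RNA stood at 0.542 CPM per kb.

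The sensors of foreign RNA held 2 of the 3 higher calls outside Sp100. Ddx58 (RIG-I) was called higher in HSC-like nuclei, at 38.0 and 26.3 CPM (41 UMIs), 2.64-fold and 3.01-fold the other nuclei, where 2.21% of genes were called higher. It was called lower in pDCP-like nuclei, at 3.56 and 2.36 CPM from 3 UMIs, where 2.67% of genes were called lower. B-like nuclei had the highest level, 86.4 and 56.6 CPM from 11 UMIs, too few expected counts to be called, and no UMI was found in cDCP-like nuclei, which allows up to 25.8 CPM. The median over classes was 19.96 CPM. Its promoter followed another order, from 47.3 and 33.1 CPM in pro-NK/T-like nuclei, a higher call, through a median of 21.4 to 7.94 and 10.7 in cDCP-like nuclei, a lower call. Ifih1 (MDA5), the sensor of long double-stranded RNA, was called higher in EryP-like nuclei at 51.0 and 29.3 CPM (26 UMIs), 2.80-fold and 2.04-fold, where 2.71% of genes were called. The highest level was 53.2 and 71.0 CPM in cMoP-like nuclei (8 UMIs) around a median of 19.0, and none was found in cDCP-like nuclei. The Ifih1 promoter had 35.6 and 30.1 in EryP-like nuclei and 13.2 and 24.7 in cDCP-like nuclei, around a median of 28.8. Dhx58 (LGP2), which modulates both sensors, had 80 UMIs in all and was not counted in RNA. Its promoter was lower in B-like (6.77 and 11.03 CPM) and pro-B-like nuclei (10.5 in both libraries), against a median of 13.9 and a high of 22.4 and 17.8 in GMP-like nuclei. B-like and pro-B-like nuclei were classes where 10.1% and 11.4% of promoters were called lower. Zbp1, a sensor of Z-form nucleic acid that triggers necroptosis, gave 24 UMIs and was at 0 in 7 classes, while its promoter was lower in EryP-like nuclei at 9.29 and 9.67 CPM, against a median of 25.7 and 37.3 and 33.8 in LMPP-like nuclei. Zbp1 was 1 of 4 lower promoter calls there, with Oas2, Rtp4 and Ifit3, in a class where 9.56% of promoters were called lower.

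Among the effectors that act on RNA and translation, opening differed more than transcript could show. Ifit1, Ifit2 and Ifit3 encode proteins that bind viral RNA ends, and they gave 31, 99 and 4 UMIs. Ifit2 reached 53.2 CPM in cMoP-like nuclei of library 1 and 0 in library 2 (4 UMIs). The Ifit1 promoter ranged from 2.65 and 1.34 CPM in cDCP-like nuclei, through a median of 7.97, to 17.3 and 7.56 in pro-NK/T-like nuclei. It was also called lower in NeuP-like nuclei, at 2.60 and 3.60. Ifit3, with 2 ISRE matches, ran from 0.338 and 0.899 in EryP-like nuclei (6 counts) through a median of 3.06 to 9.23 and 5.67 in pro-NK/T-like nuclei (22 counts). With libraries pooled this was the widest promoter range of the set, 13.6-fold, but pro-NK/T-like nuclei had too few expected counts to be called, and the gene could be counted in 6 of 13 classes. The Ifit2 promoter, with no ISRE match in its window, stood at a median of 23.8 and between 20.2 and 18.7 in GMP-like and 31.5 and 31.0 in pro-B-like nuclei. Thus Ifit2 was several times as open as its neighbours on chromosome 19. The matrix assigns the Ifit1 peak also to Ifit1bl2, and reads of these near-copies may be split.

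The oligoadenylate synthetases, which start RNA decay, gave 27 (Oas2), 62 (Oas3), 75 (Oasl2) and 48 (Oas1a) UMIs, too few for a call in RNA in a named class. Their promoters were most open in pro-B-like nuclei for Oas2 and Oasl2. Oas2 had 13.3 and 12.6 CPM there, 2.79-fold and 2.27-fold the other nuclei. Its lower calls were 3.55 and 3.15 in EryP-like and 3.70 and 3.62 in MkP-like nuclei, around a median of 5.36. Oasl2 had 18.2 and 19.4 in pro-B-like nuclei and was lower in B-like nuclei, at 4.17 and 6.30, and in cDCP-like nuclei, at 6.62 and 4.01, around a median of 9.76. With Sp100 and Rsad2, these were the 4 higher calls of pro-B-like nuclei, where 5.98% of promoters were called higher. Pro-B-like and B-like nuclei therefore lay at opposite ends for Oasl2. Oas2 was 1 of the lower calls of MkP-like nuclei, where 5.14% of promoters were called lower.

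Rsad2 (viperin), an enzyme that makes a chain-terminating nucleotide, and Cmpk2, which lies beside it on chromosome 12, gave 62 and 111 UMIs. The Rsad2 promoter was called higher in 2 classes, with 29.2 and 48.8 CPM in B-like nuclei, and pro-B-like nuclei had 25.2 and 23.0. The median was 18.0 and the low 12.6 and 11.4, in cDCP-like nuclei. B-like nuclei had no Rsad2 UMI, which allows up to 26.4 CPM. Eif2ak2 (PKR), which halts translation on double-stranded RNA, was better covered, with a median of 59.9 CPM. It had 121 and 79.6 CPM in EryP-like nuclei (64 UMIs) and 36.3 and 9.23 in BaP-like nuclei, with no call. Its promoter was called lower in B-like nuclei, at 12.0 and 9.45, and in cDCP-like nuclei, at 6.62 and 12.0, against 25.1 and 23.3 in HSC-like nuclei. Adar, the RNA-editing enzyme, was the most even gene of the set in RNA, between 57.2 and 19.3 CPM in pro-NK/T-like and 70.0 and 77.6 CPM in pro-B-like nuclei around a median of 58.5.

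Samd9l, a growth-restricting antiviral protein, was higher in the promoter in 4 classes and lower in RNA in 1. Its RNA was 5.35 and 4.71 CPM in pDCP-like nuclei (5 UMIs), the second lower call of that class, against a median of 22.2 and 81.7 and 95.04 CPM in NeuP-like nuclei (24 UMIs). Its promoter had 20.8 and 31.2 CPM in pro-NK/T-like, 21.9 and 25.2 in B-like, 17.5 and 16.3 in BaP-like and 16.6 and 16.3 in MkP-like nuclei, all called higher. The low was 8.89 and 7.15 in cMoP-like nuclei. In BaP-like nuclei, where 1.44% of promoters were called higher, Samd9l was the 1 call of the set. B-like nuclei had 2 higher calls, Samd9l and Rsad2, where the background was 7.25%, and pro-NK/T-like nuclei had 3, Samd9l, Ddx58 and Irf7, where it was 7.04%. In MkP-like nuclei it was called with Parp12, at 42.5 and 45.6, where the background was 3.58%.

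Sp100, a core protein of PML nuclear bodies, gave the widest range of a well-counted transcript. Pro-NK/T-like nuclei had 458 and 309 CPM, cDCP-like nuclei 400 and 383, B-like nuclei 451 and 255 and cMoP-like nuclei 346 and 195, whereas GMP-like nuclei had 65.2 and 49.9 CPM. In pro-NK/T-like nuclei this was 56 UMIs or 402 CPM (304 to 522), 3.78-fold and 3.79-fold the other nuclei. The same ratios were 3.26-fold and 4.78-fold for cDCP-like, 3.75-fold and 3.09-fold for B-like, and 2.81-fold and 2.37-fold for cMoP-like nuclei. The share of genes called higher was 3.55%, 3.08%, 4.35% and 3.01% in these classes, where only 3 of the 36 genes could be counted. NeuP-like nuclei had 368 and 160 CPM, not a call because library 2 was under 2-fold. The median over classes was 118 CPM. The promoter peak was small, yet also ran from 1.94 and 2.14 CPM in GMP-like nuclei to 16.7 and 12.3 in pro-NK/T-like nuclei. It was called higher in pro-B-like nuclei, at 6.06 and 6.77, where RNA was 67.8 and 50.6 CPM. It was called lower in GMP-like nuclei, where 2.27% of promoters were, and in LMPP-like nuclei, at 2.78 and 1.42, where 3.88% were. The 11 peaks within the body of the gene and outside the window summed to 126 CPM in B-like, 90.6 in NeuP-like, 84.8 in cMoP-like, 80.8 in cDCP-like and 75.6 in pro-NK/T-like nuclei. They summed to 48.8 in HSC-like, 49.6 in MkP-like and 54.2 in GMP-like nuclei, so the 5 classes with the most Sp100 RNA were also the 5 with the most open gene body. Sp100 has near-copies on chromosome 1, and reads may be split among them.

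**Figure D2:**
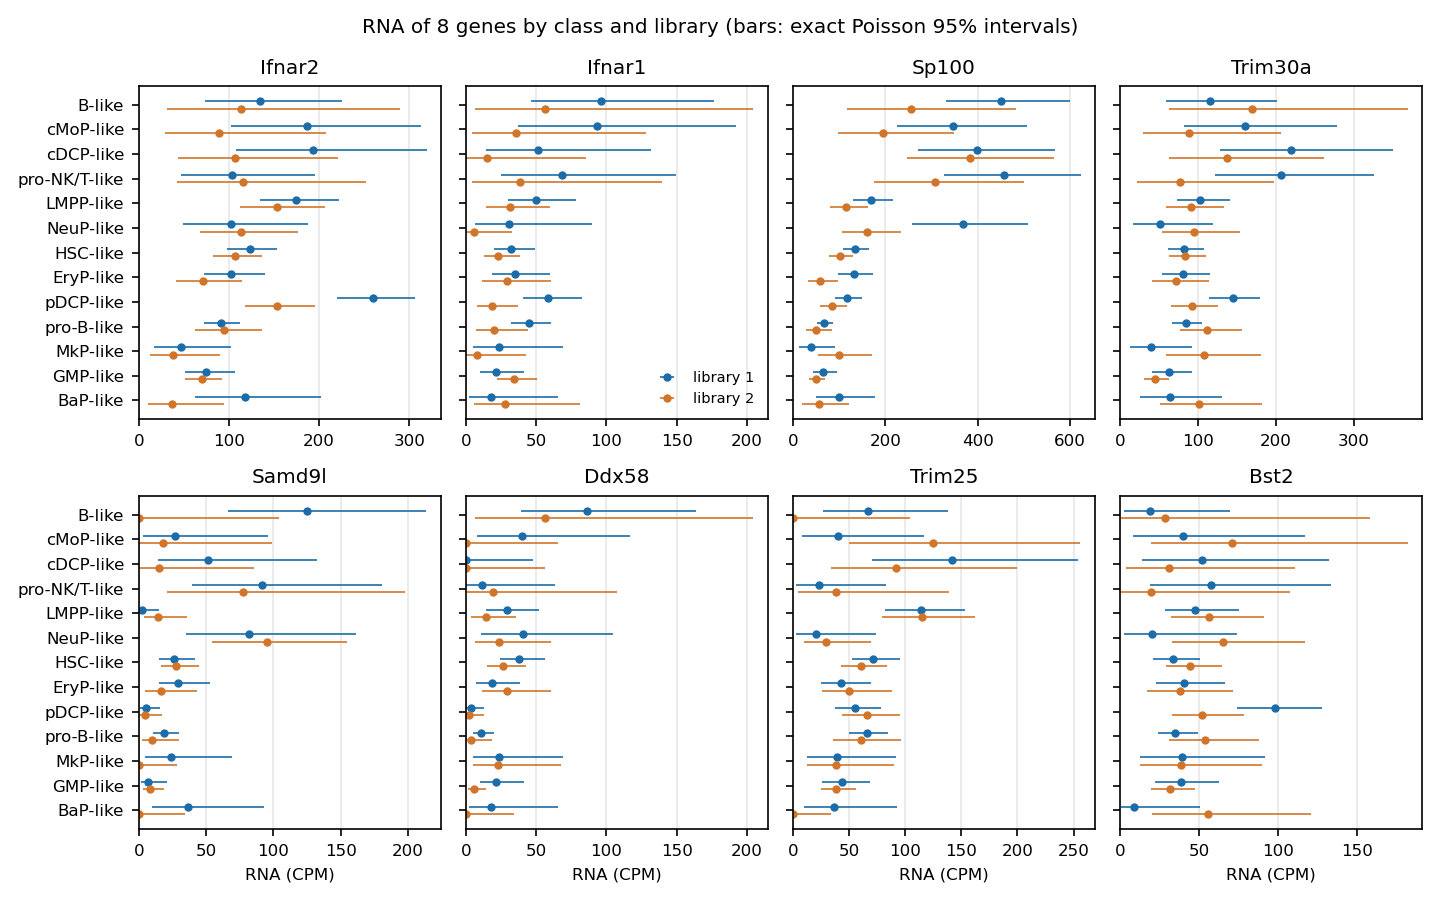
RNA of 8 genes by class in CPM, with 1 point per library and 95% Poisson intervals. Sp100 is highest in pro-NK/T-like, cDCP-like and B-like nuclei, at 255 CPM or more in each library, and Ifnar2 is lowest in MkP-like nuclei on the mean of libraries, at 47.2 and 38.4 CPM.

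Of the ubiquitin-like and tripartite-motif genes, 1 was called in RNA. Trim25, the ligase that activates RIG-I, was called higher in LMPP-like nuclei at 114 and 115 CPM (76 UMIs), 2.20-fold and 2.70-fold, where 1.91% of genes were called. The cDCP-like level was 142 and 91.9 CPM from 17 UMIs, the median 46.6 and the low 36.3 and 0 in BaP-like nuclei. Trim30a, a restriction factor, was counted in every class and called in none, from 62.8 and 44.2 CPM in GMP-like through 97.0 to 219 and 138 CPM in cDCP-like nuclei. Bst2 was highest in pDCP-like nuclei on the mean of libraries, at 98.0 and 51.8 CPM (77 UMIs), against a median of 39.0, and cMoP-like nuclei stood above them in library 2 at 71.04 CPM (7 UMIs over both libraries). The Siglech-led nuclei gave 24 of the 77 UMIs. Isg15 gave 45 UMIs and its promoter was most open in pro-NK/T-like nuclei at 12.7 and 11.3 CPM. Usp18, the protease that removes Isg15 and blocks the receptor, gave 60 UMIs. The Usp18 promoter ranged from 3.31 and 4.68 in cDCP-like nuclei, a lower call, to 31.0 and 36.2 in MkP-like nuclei around a median of 22.5. Herc6, the mouse ligase for Isg15, had a median of 48.8 CPM, with 95.1 and 48.9 CPM in LMPP-like nuclei, the highest on the mean of libraries though not in library 2.

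The poly(ADP-ribose) polymerases Parp9, Parp12 and Parp14 and the partner of Parp9, Dtx3l, had median RNA of 33.97, 11.5, 34.7 and 45.5 CPM, with no call in a named class. Parp9 and Dtx3l share 2 promoter peaks and cannot be told apart there. The Parp12 promoter ran from 11.9 and 16.7 in cDCP-like nuclei, a lower call, to the MkP-like level given above. Ifi44, a gene of unsettled function, had 29.1 and 28.0 CPM in LMPP-like nuclei (19 UMIs), against a median of 4.97, and its promoter was called higher there, at 4.68 and 7.61 against a median of 3.09, where 3.97% of promoters were called. Xaf1, which antagonises an inhibitor of apoptosis, gave 75 UMIs and a promoter that fell to 1.99 and 4.68 in cDCP-like nuclei, against a median of 11.4.

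With these, cDCP-like nuclei had the most lower promoter calls, 8 of the 30 genes counted there: Ddx58, Oasl2, Parp12, Herc6, Usp18, Xaf1, Eif2ak2 and Ifit1. Over all genes, 9.69% were called lower in that class. The same class had the highest summed RNA on the mean of libraries, of which Sp100, called higher there, was the largest single share.

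Rtp4, a chaperone of receptor transport, needs a separate account, because its start-site interval spans 89635 bases and takes in 13 peaks, some of them nearest to Masp1. Summed over these, it was called lower in EryP-like (26.3 and 33.95 CPM), pro-B-like (31.5 and 29.3) and pro-NK/T-like nuclei (25.4 and 23.6, where 9.13% of promoters were called lower). The single peak at the RefSeq start gave another order. Pooled over libraries, it ran from 4.49 CPM (3.32 to 5.94) in pDCP-like to 15.04 CPM (9.31 to 22.99) in pro-NK/T-like nuclei, and within single libraries other classes were at the ends. Pro-B-like nuclei had 13.5 and 10.4, and HSC-like nuclei 11.8 and 12.4. The lower calls in lymphoid nuclei thus came from the peaks away from that start. Ifi35, a partner of Nmi, was called nowhere, with 13.01 CPM pooled in NeuP-like to 25.9 in cMoP-like nuclei, as was Cmpk2, with 21.9 to 40.1.

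**Figure D3:**
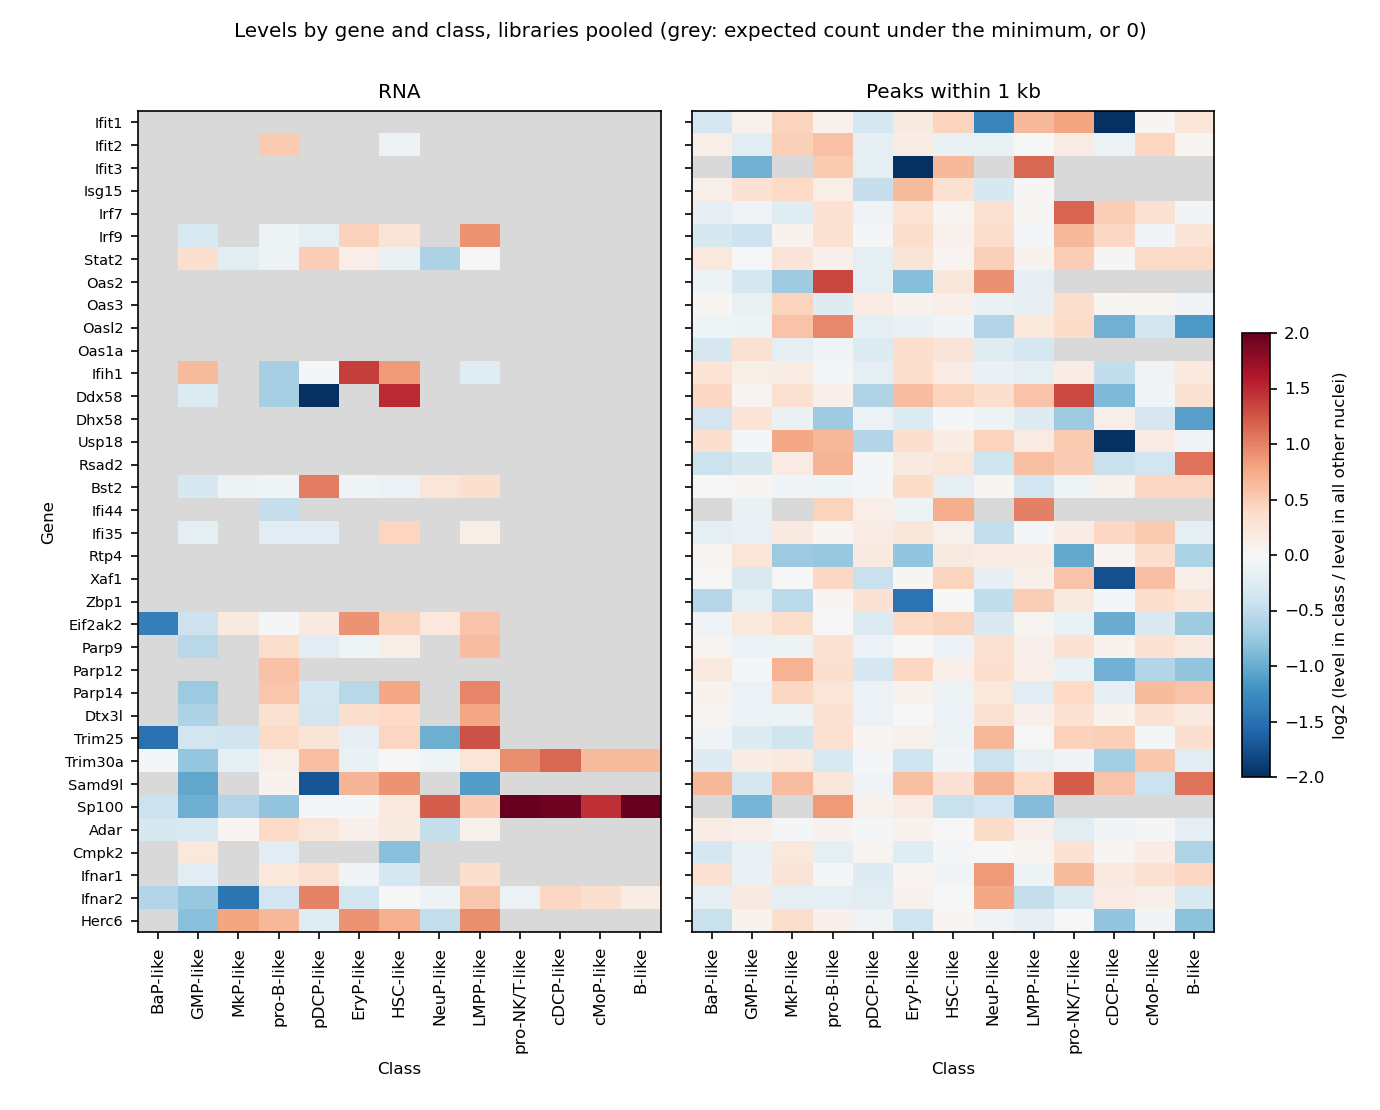
Ratio of each class to all other nuclei for the 36 genes, as log2 of the ratio, in RNA and in promoters, with libraries pooled and grey cells where too few counts were expected or the level was 0. RNA could be counted in 148 of 468 cells and promoters in 436, and the Sp100 row in RNA is above 0 in B-like, cDCP-like, cMoP-like and pro-NK/T-like nuclei.

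Early progenitors were also set beside GMP-like nuclei, a view added after the class levels had been seen, so it is a description only. The promoters of all 36 genes could be counted, with a median ratio of 1.08 for HSC-like over GMP-like nuclei and 1.09 for LMPP-like over GMP-like nuclei, against 1.05 and 1.04 for all genes with a peak. Xaf1 and Ifit3 were past 1.5-fold in both libraries in HSC-like nuclei, as 5.02% of all promoters were, and Zbp1, Rsad2 and Ifit3 in LMPP-like nuclei, as 6.81% were. Of the 36 genes these are 2 and 3.

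The RNA of a single nucleus is too sparse to rank genes, but nuclei differed in how many of the genes they held together. Without the receptor genes, 7853 nuclei (57.7%) had a UMI of none of the 34 genes, 3967 of 1, 1287 of 2, 342 of 3, 145 of 4 or 5 and 25 of 6 or more, and the richest had 11. The 25 nuclei lay in HSC-like (6), EryP-like (5), LMPP-like (5), pDCP-like (4), cMoP-like (2), pro-NK/T-like (1), GMP-like (1) and pro-B-like (1) nuclei, and 22 of them were in library 1. Of the nuclei with 4 or more, 136 were in library 1 and 34 in library 2. Nuclei with more UMIs have more chances, with a median of 747 UMIs outside the ribosomal locus in nuclei with none and 1114.5 in those with 4 or more. After thinning each of 11346 nuclei to 500 UMIs, 1.39% of nuclei in library 1 and 0.691% in library 2 held 3 or more, against 6.37% and 1.76% unthinned. By class, the thinned share was 4.84% in cMoP-like (6 of 124 nuclei), 3.23% in pro-NK/T-like (4 of 124), 2.95% in LMPP-like, 2.15% in NeuP-like, 2.10% in cDCP-like and 1.95% in HSC-like nuclei. GMP-like nuclei had 0.265% (3 of 1133). Unthinned, these 7 shares were 5.65%, 4.48%, 8.95%, 2.53%, 7.73%, 5.96% and 1.94%, so the order differed. Thinning left out shallower nuclei and kept 39.2% of NeuP-like, 61.7% of pro-NK/T-like and 70.1% of cMoP-like nuclei, so the highest thinned shares rest on few nuclei.

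Genes that had not been used to sort these nuclei were then read out, a comparison also added after seeing the data. RNA of 57 other interferon-stimulated genes was 2350 CPM (2312 to 2388) in nuclei with none of the 34 genes. It was 2474, 2711 and 2963 CPM with 1, 2 and 3, 3899 CPM with 4 or 5 and 7076 CPM (6183 to 8061) with 6 or more. With 4 or more against none the ratio was 1.85, at 1.74 in library 1 and 1.92 in library 2. Of 21 of these genes counted, 6 were higher by 2-fold in both libraries, where 0.734% of all genes were. Among them were Rnf213 (5.12-fold), Epsti1 (4.24-fold), Ifi203 (3.77-fold), Mndal (3.65-fold) and Trim12c (2.08-fold). The promoters of the 34 genes rose in the same order, from 665 CPM (659 to 671) with none to 876 (774 to 988) with 6 or more. The receptor promoters stood at 82.3 (80.2 to 84.5) and 69.3 (42.9 to 106). The last step rests on library 1, since the 3 nuclei of library 2 with 6 or more had 3556 CPM (1626 to 6750) in RNA and 660 CPM (437 to 958) in promoters. With 4 or more against none the promoter ratio was 1.17, and 3 of the 31 promoters counted, those of both receptor genes among them, were called higher, Ifit1 (1.94-fold), Usp18 (1.59-fold) and Ddx58 (1.59-fold), where 0.587% of all promoters were. Within classes with at least 10 such nuclei, the RNA ratio was 2.39 in pDCP-like, 2.09 in EryP-like, 1.68 in HSC-like, 1.43 in pro-B-like and 1.41 in LMPP-like nuclei. The promoter ratio was 1.26 in LMPP-like, 1.22 in HSC-like, 1.19 in EryP-like, 1.02 in pro-B-like and 0.99 in pDCP-like nuclei. RNA ratios were thus above 1 in all 5 classes, whereas promoter ratios in pDCP-like and pro-B-like nuclei were near 1. The median ratio over all counted genes was not computed within classes. Doublet scores in the top 8% were found in 20% of the 25 nuclei with 6 or more genes, 10.6% of nuclei with 4 or more and 6.42% of those with none. With 4 or more against none, the RNA ratio was 1.93 without such scores.

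**Figure D4:**
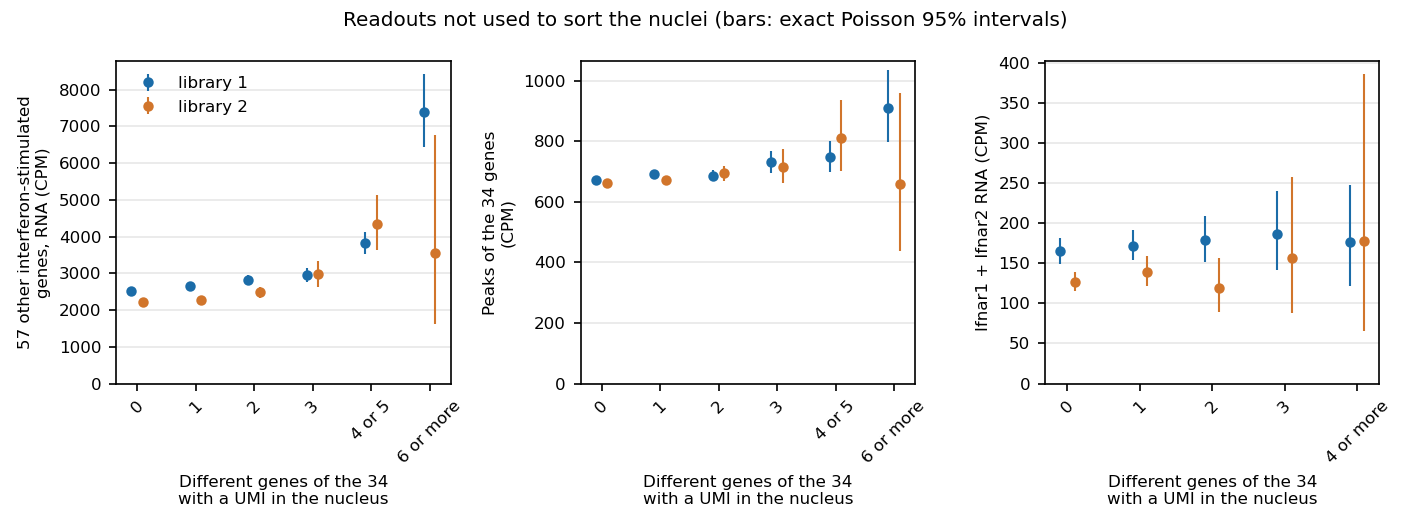
Nuclei sorted by how many of 34 genes had a UMI, with RNA of 57 other interferon-stimulated genes, promoter counts of the 34 genes and RNA of the receptor genes on the vertical axes, 1 point per library and 95% Poisson intervals. In library 1 the RNA rises from 2519 to 7379 CPM, and receptor RNA is 165 CPM with none and 176 CPM with 4 or more.

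A finer clustering, at resolution 1.2 in place of 0.8, split 83 nuclei from the pDCP-like class, 55 of library 1 and 28 of library 2. Under the same naming rule, only these 83 kept the pDCP-like name at that resolution. They are described here because the summed level there was the highest found. Their leading genes included Siglech, Grm8, Cd300c and Slc41a2, with Ccr9 and Pacsin1 among the first 10, and Tcf4 was at 5423 CPM. The other 882 pDCP-like nuclei had 14.04 CPM of Siglech, against 960 in the 83, with 2.16 against 253 CPM of Ccr9 and 760 against 5423 CPM of Tcf4. The 36 genes took no part in the clustering. Summed RNA was 3200 CPM (2761 to 3689), at 3665 (3119 to 4278) in library 1 and 1909 (1288 to 2725, from 30 UMIs) in library 2. The other 882 pDCP-like nuclei had 906 CPM (846 to 969). Without the receptor genes and Sp100 the sums were 2156 and 591 CPM. Promoters did not differ by more than their intervals, with 708 (645 to 775) and 714 (698 to 731) CPM.

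In RNA, 3 of the 36 genes had enough counts, with at least 5 expected. All 3 were past the fold against all other nuclei, as 2.57% of genes were, but these nuclei were chosen for their summed level and the 3 genes give much of that sum, so nothing is read from this and the levels are a description. In library 1 and library 2, Ifnar2 stood at 550 and 318 CPM, against 236 and 147 in the other pDCP-like nuclei. Sp100 stood at 458 and 255 CPM, against 88.9 and 78.3, and Trim30a at 366 and 191 CPM, against 126 and 88.1. Bst2, a marker of plasmacytoid dendritic cells in the mouse, stood at 435 and 318 CPM, against 69.6 and 41.6, and Stat2 at 389 and 127 CPM, against 36.7 and 39.2. Both were higher in each library, though too sparse for a call. In library 2, Bst2 rests on 5 UMIs and Stat2 on 2, and Ifnar2, Sp100 and Trim30a on 5, 4 and 3. Herc6 (14 UMIs) and Usp18 (7 UMIs) had UMIs in library 1 alone. Dtx3l had none, against 32.4 CPM in the other pDCP-like nuclei, an upper limit of 62.1 CPM. No UMI was found either for Ifit1, Ifit2, Ifit3, Irf7, Oas1a, Oas2, Oas3, Oasl2, Ddx58, Rsad2, Rtp4, Zbp1, Parp12 and Cmpk2. These genes were at 7.56 CPM or less in the other pDCP-like nuclei. The Irf7 promoter was the 1 promoter called higher of 25 counted, at 54.1 and 67.5 CPM, where 1.97% of promoters were. Usp18, Rtp4 and Eif2ak2 were called lower, where 6.54% of promoters were. The Ifnar1 promoter had 18.7 and 39.4 CPM, against 57.1 and 50.5. Top doublet scores were at 7.23% in the 83 nuclei and at 10.4% in the others.

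**Figure D5:**
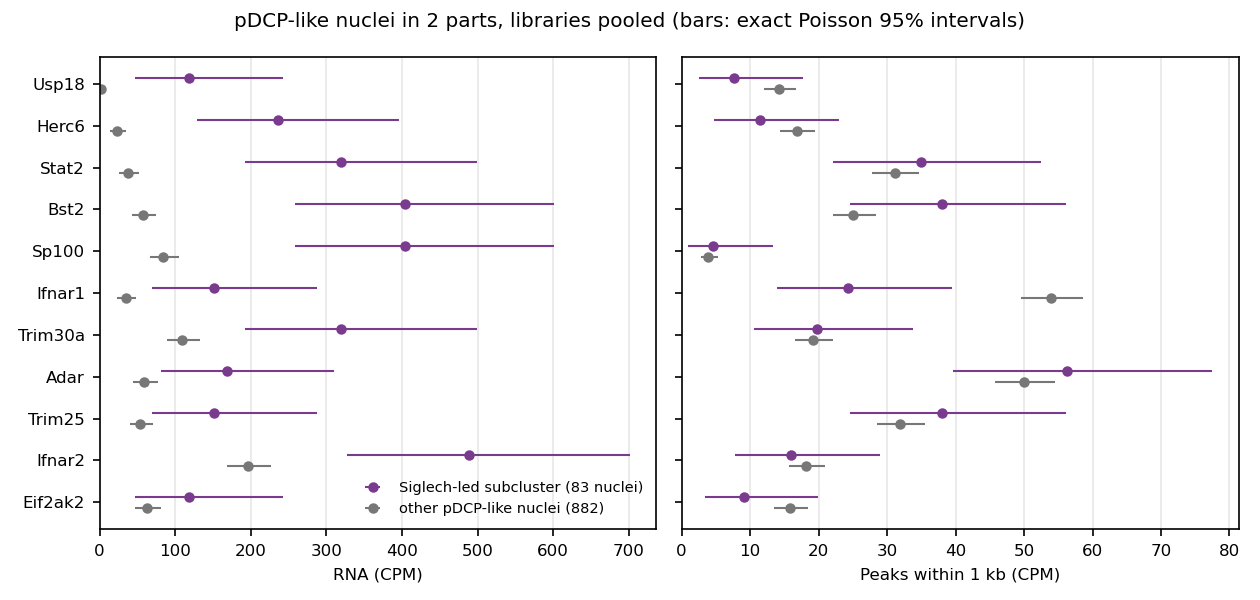
RNA in CPM and promoter CPM in the 83 Siglech-led nuclei and in the other 882 pDCP-like nuclei, libraries pooled, with 95% Poisson intervals. The 11 genes shown are those of the set with at least 5 UMIs in the 83 nuclei. That choice favours genes with high RNA there, so nothing is read from their shared direction in RNA. Bst2 is at 404 against 57.2 CPM and Stat2 at 320 against 37.8 CPM.

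Of the other 90 pathway genes listed, 87 had a row. Higher RNA was called in 22 of 356 pairs (6.18%), against 2.35% over all genes, and lower RNA in 23 (6.46%), against 4.49%. Higher promoter counts were called in 46 of 851 pairs (5.41%), against 4.09%, and lower in 78 (9.17%), against 7.72%. Of the ligands, 14 had a peak, at 0.644 to 2.63 CPM. In pDCP-like nuclei the promoters of Ifna2, Ifna6, Ifna11 and Ifna14 were called higher, where 1.53% of promoters were. These 4 sums were small, at 0.923 to 1.58 CPM over all nuclei. Of the 965 nuclei in that class, 882 lost its name in the finer clustering. HSC-like nuclei had Ifna13 higher, where 4.37% were, and Ifna4, Ifna5, Ifna14 and Ifne lower, where 3.31% were. Pro-B-like nuclei had Ifna4 higher, where 5.98% were, and 9 ligand promoters lower, where 11.4% were. Ifna1 was also lower in EryP-like nuclei, and Ifna1 and Ifna4 in GMP-like nuclei. Irf8, a factor of monocytes and dendritic cells, was higher in RNA in pDCP-like and cDCP-like nuclei, where 0.501% and 3.08% of genes were called higher. It was lower in BaP-like, EryP-like, GMP-like, HSC-like, MkP-like and NeuP-like nuclei, where 2.27% to 9.82% of genes were called lower. Mndal, a nucleic acid sensor of the Ifi200 family, was lower in BaP-like and GMP-like nuclei, where 3.28% and 4.51% of genes were called lower. It was higher in B-like (4.35% of genes called), cDCP-like (3.08%) and pro-NK/T-like nuclei (3.55%), 3 of the 4 classes with higher Sp100. Mndal and Sp100 both lie on chromosome 1.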

How the data were processed

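The deposited matrix held raw counts that were not normalized. The authors made it by aligning reads to GRCm38 (mm10) in Cell Ranger ARC 2.0.0. Gene rows are UMIs and peak rows are ATAC counts. The submitters' processing notes also name Seurat 4.0.3 and Signac 1.3.0. No per-sample value columns were left unused (0).

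Nuclei with at least 200 genes and 1000 to 50000 peak counts were kept. They were clustered on RNA and ATAC with weighted nearest neighbours at resolution 0.8 (Seurat 5.3.0, R 4.3.3) after correction between libraries, with 123 genes and 206 peaks of the pathway left out. Classes were named from marker lists, with at least 3 raised markers. Doublet scores came from scrublet (scanpy 1.11.5), and no nucleus was removed for them in the results given. The matrix held 0 mitochondrial gene rows.

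Counts were summed per class and library in Python 3.11.15 (numpy 2.4.6, scipy 1.17.1, pandas 2.3.3). CPM left out Gm42418, Gm26917 and AY036118, the genes of the ribosomal locus. Of the peak entries, 82.5% were even, so ATAC intervals were computed on pairs of counts. Calls were by size in both libraries, with no test, since each label group held 1 sample. The RNA calling steps were tested on simulated counts of some classes, with planted changes larger than the fold limit. Promoter calls and changes near the limit were not simulated. By rule, genes written out were the receptor genes, every gene called in a named class and the 3 with the most and the fewest UMIs. Values of the others, among them Stat2, Irf9, Adar, Bst2, Isg15, Ifi35 and Cmpk2, were added after their values were seen, so that each gene is accounted for. The members and lists were chosen with earlier results of these data known. Alternatives changed the fold, the minimum of expected counts, the scaling, the peak window, the gene minimum, the clustering and the library used. Gene positions came from GENCODE annotation of GRCm38 and promoter sequences from RefSeq GRCm38.p6. Mx1, Mx2 and Oas1b were not analysed here.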

Additional observations from a re-analysis of the deposited data

How the results depend on the processing

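Of 81 alternative values, 53 stayed within the bounds set for them and 28 moved. These bounds concern the size of a value, so a change of the highest or lowest class was not counted by them. Higher RNA calls, 7 as reported, numbered 17 at a fold of 1.5, 13 with at least 5 expected UMIs, 1 with at least 20, 1 in nuclei with at least 500 genes and 2 in library 2 alone. Lower RNA calls, 3 as reported, numbered 14, 12, 1 and 1 under the same first 4 changes, 9 at resolution 0.4, 1 at resolution 1.2, 5 without correction between libraries and 8 in library 1 alone. Higher promoter calls, 16 as reported, numbered 2 at a fold of 2, 6 with at least 100 expected counts, 25 in library 1 alone and 32 in library 2 alone. Lower promoter calls, 22 as reported, numbered 6 at a fold of 2, 5 with at least 100 expected counts, 10 in nuclei with at least 500 genes and 41 in library 1 alone. The range of summed RNA over classes, 2.38 pooled, was 5.07 at resolution 1.2, where the Siglech-led nuclei formed the highest class, and 5.07 without correction, where the class named pDCP-like was the highest. The range of summed promoters, 1.33 pooled, was 1.21 when scaled to counts in peaks near genes, and both end classes changed. RNA of other interferon-stimulated genes, 1.85-fold with 4 or more genes against none, was 1.47-fold with 3 or more, 3.01-fold with 6 or more and 1.74-fold in library 1 alone. The promoter ratio, 1.17, was 1.32 with 6 or more. The changes to these nuclei, the sum without Sp100 (range 2.14) and the Rtp4 peak at its RefSeq start alone were chosen after seeing the data. The cause of these movements was not tested, apart from fewer or more pairs counted under the expected-count limits. Depth limited RNA, since 14 of the 36 genes could be counted in no named class. No paired analysis was possible because no label ties the libraries to samples and the result comes from no test.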
